A study of Homo sapiens with 8 samples.

Results

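Kinesin genes were followed by RNA-seq in A549 cells, a human lung adenocarcinoma line, across 4 treatment groups. A gene was included when the count table held it under a protein-coding symbol made of KIF and a number, or under KIFC1, KIFC2 or KIFC3, and when it was not at 0 in all 8 libraries. This gave 39 kinesin genes of the 60664 genes in the table. They were 9 mitotic kinesins (KIF11, KIF14, KIF15, KIF18A, KIF20A, KIF23, KIF2C, KIF4A and KIFC1), 4 other mitotic kinesins (KIF18B, KIF20B, KIF22 and KIF4B), 15 transport kinesins and 11 others, and 38 of the 39 passed the filter on low counts.

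Each group had 2 libraries. Untreated A549 cells received neither agent. IFN-γ cells received the cytokine alone (20 ng per the labels, per mL in the study's methods), and AX-0085 cells received 0.5 μM of AX-0085, a compound that the study developed as an inhibitor of PD-L1 expression. In the doubly treated group, called both here, IFN-γ was given for 24 h and AX-0085 was then added for another 24 h. The same times, 24 h before and 24 h after the step of AX-0085, are listed for all 8 libraries. All groups were the same unmodified cell line, and no vehicle is named for the untreated cells in the sources used here. The study states that the cells were prepared as duplicate samples, but not whether these were separate cultures. The p-values therefore measure the spread between these libraries, which may be technical.

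Kinesins are motor proteins that use ATP to move along, or to take apart, microtubules. Mitotic kinesins build the spindle, align and separate chromosomes and help to divide the cytoplasm, and in cultured cells their transcripts accumulate in G2 and M phase. Transport kinesins carry vesicles, organelles and RNA, most of them toward the periphery of the cell, often through light chains and adaptor proteins. Many are used by resting as well as dividing cells.

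Total counts lay between 20672828 and 29978251 per library, and 3 counts, used as the floor of detection, stood for 0.0959 to 0.158 CPM (counts per 1e6 counts, scaled with TMM factors). The floor covers counting error only. Of 6 epithelial markers, all 6 reached at least 1 CPM in the untreated, AX-0085 and doubly treated libraries and 5 of 6 did with IFN-γ alone, where EPCAM, an epithelial adhesion molecule, was at 0.475 and 0.281 CPM against 3.41 and 3.299 in untreated cells. With IFN-γ 5 of the 6 were called lower, namely EPCAM (−3.18), KRT19 (−2.16), CDH1 (−1.73), KRT8 (−1.40) and KRT18 (−1.09), while KRT7 rose by 0.74 on the log2 scale. With AX-0085, KRT18 was called lower (−1.30) and EPCAM higher (1.33). The summed level of 7 leukocyte markers was 0.0402 to 0.956 CPM with 4 of the 7 (CD3D, CD3E, CD68 and MS4A1) at 0 in every library, and that of 4 endothelial markers was 0.0402 to 0.529 CPM. The 5 fibroblast markers summed to 3.06 to 4.59 CPM with IFN-γ alone and to 7.03 to 10.8 CPM in the other groups, nearly all of it COL1A1, with COL1A2 at 0. The part of these markers in the results below was not tested.

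Promoter sequences of 4 mitotic and 2 transport kinesins are shown to let a reader see motif letters known from cell cycle genes, and whether the letters have a part in any change was not tested. The RefSeq table (GRCh38.p14) holds windows from 250 bases before to 50 bases after the start of 35116 genes, and 32 of the 39 kinesins had one. A pair of short motifs known from genes of G2 and M phase were searched on both strands: the CCAAT box, with the letters CCAAT, and the cell cycle homology region or CHR, with the letters TTTGAA. Below are the 150 bases before the RefSeq start, read 5′ to 3′ along the gene's strand, for the mitotic kinesins KIF20A (chr5:138178962-138179111, + strand), KIF23 (chr15:69414199-69414348, + strand), KIF18A (chr11:28108157-28108306, − strand) and KIF11 (chr10:92592980-92593129, + strand), and for the transport kinesins KIF5B (chr10:32056426-32056575, − strand) and KIF3C (chr2:25982498-25982647, − strand). Capitals mark the CCAAT box and CHR letters on either strand, so that ATTGG is a CCAAT box and TTCAAA a CHR on the opposite strand.
KIF20A: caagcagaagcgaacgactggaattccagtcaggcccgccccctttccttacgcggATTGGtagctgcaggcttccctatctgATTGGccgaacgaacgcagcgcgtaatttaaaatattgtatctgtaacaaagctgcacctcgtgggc
KIF23: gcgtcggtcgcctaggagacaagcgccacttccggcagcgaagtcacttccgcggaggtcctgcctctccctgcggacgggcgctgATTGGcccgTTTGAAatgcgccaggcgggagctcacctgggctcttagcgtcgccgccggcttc
KIF18A: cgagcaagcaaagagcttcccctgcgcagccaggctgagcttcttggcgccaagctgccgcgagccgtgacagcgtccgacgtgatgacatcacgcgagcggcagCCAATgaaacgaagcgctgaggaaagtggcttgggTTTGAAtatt
KIF11: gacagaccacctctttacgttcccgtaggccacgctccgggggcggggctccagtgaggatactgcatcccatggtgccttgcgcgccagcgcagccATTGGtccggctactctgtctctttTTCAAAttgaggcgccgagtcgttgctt
KIF5B: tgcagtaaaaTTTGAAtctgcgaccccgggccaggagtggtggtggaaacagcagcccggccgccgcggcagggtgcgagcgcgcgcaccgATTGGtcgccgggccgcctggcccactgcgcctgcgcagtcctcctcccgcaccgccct
KIF3C: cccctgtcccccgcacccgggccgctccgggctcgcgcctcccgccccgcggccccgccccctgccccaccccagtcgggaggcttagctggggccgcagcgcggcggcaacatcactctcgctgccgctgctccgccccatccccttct

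In the whole window, 7 of the 9 mitotic kinesins held a CCAAT box, 7 held a CHR, and 6 held both (KIF11, KIF14, KIF18A, KIF23, KIF4A and KIFC1). KIF2C held neither. Of the 4 other mitotic kinesins, 3 held both (KIF18B, KIF20B and KIF4B), and KIF22 held neither. Of the 11 transport kinesins with a window, 4 held a CCAAT box and 1 (KIF5B) a CHR, which in KIF5B lay 140 bases before the start, while the CHR of KIF23, KIF18A and KIF11 began 55, 10 and 28 bases before it. Over all 35116 windows, 34.6% held a CCAAT box, 15.2% a CHR and 5.90% both. These are matches of letters, not binding sites, and no test was made of them.

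Levels per kb were divided by the union of all annotated exons of a gene, which was 33151 bases for KIF5C, 9602 for KIFC3 and 5866 for KIF5B. The transcripts present can be shorter than this union, so the order of genes and the sums over genes are approximate. On this scale, untreated A549 cells held most RNA of the transport motor KIF5B, the ubiquitous heavy chain of conventional kinesin (57.0 ± 3.31 CPM per kb, SD, n = 2). KIF11 (38.3 ± 1.47), the motor that pushes spindle poles apart, and KIF20A (37.2 ± 1.29), which acts in cytokinesis, came next and did not differ beyond their spread. KIF1C (32.4 ± 0.320), a carrier of vesicles, was followed by KIFC1 (29.1 ± 1.23), KIF23 (28.9 ± 0.585), KIFC3 (27.5 ± 1.79) and KIF4A (26.5 ± 0.376), whose neighbours in this order did not differ beyond their spread. With IFN-γ alone, KIFC3, a minus-end motor of cell junctions and Golgi, was at the top at 61.1 ± 0.385 CPM per kb beside KIF5B at 58.8 ± 6.97, which overlapped. With AX-0085 and with both, KIF5B was again at the top, at 43.3 ± 3.05 and 50.03 ± 0.346 CPM per kb. At the other end, 10 of the 39 kinesins stayed below 1 CPM per kb in every library, among them the neuronal motors KIF1A, KIF5A and KIF5C.

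The summed level of the 39 kinesins was 451 and 449 CPM per kb without treatment. It was 250 and 257 in the AX-0085 libraries, 377 and 396 in the IFN-γ libraries and 289 and 286 in the doubly treated ones. The 9 mitotic kinesins took 45.8% and 45.7% of that sum without treatment. Their part was 31.7% and 31.9% in the AX-0085 libraries, 37.2% and 36.3% in the IFN-γ libraries and 33.0% and 33.0% in the doubly treated ones. The transport kinesins took 39.2% and 38.8%, 53.6% and 53.3%, 49.8% and 50.4%, and 52.0% and 52.6% in the same order of groups. In the shares of both classes the untreated libraries stood apart from all 6 treated libraries. The sum itself was lower in every treated library, so a larger transport share does not by itself mean more transport kinesin RNA. In RNA from whole cultures, fewer cells in a given phase and less RNA per cell cannot be told apart.

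**Figure D1:**
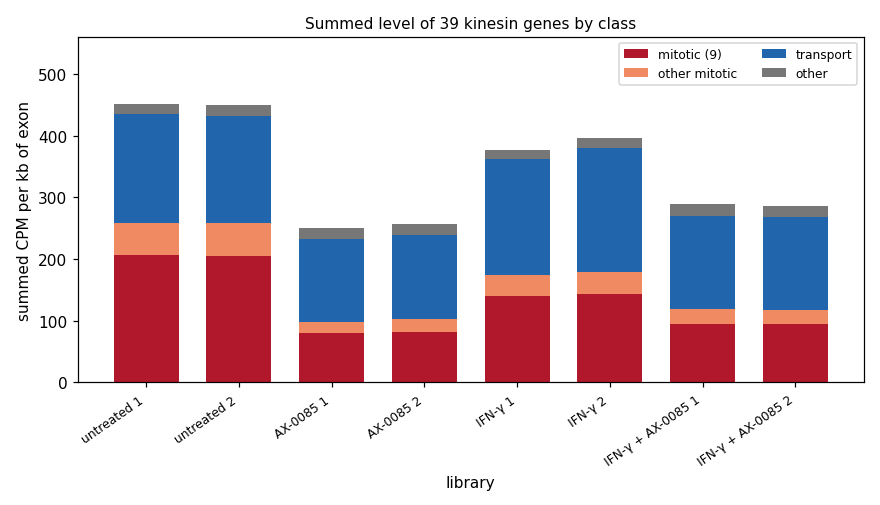
Stacked bars give, for each of the 8 libraries (x axis), the summed level of the 39 kinesins in CPM per kb of exon (y axis), coloured by class. The mitotic part is tallest in the 2 untreated libraries and smallest with AX-0085, while the transport part varies less.

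AX-0085 alone lowered the mitotic kinesins as a group and left the transport kinesins within 2-fold. The share of counts from mitochondrial genes was 4.12% and 5.73% in the AX-0085 libraries against 3.55% and 2.72% in the untreated ones, and its part in the change was not tested. Of the 9 mitotic kinesins, 7 were called lower (adjusted p under 0.05 and a fold change over 2) and 0 higher, where 5.62% of all 15066 genes tested were called lower and 6.41% higher. Below, rose and fell refer to an adjusted p under 0.05. All 9 fell, with log2 changes between −1.65 and −0.92 and a median of −1.40, against a median of 0.01 over all genes tested. Of those 15066 genes, 4018 rose and 4010 fell. The 3 other mitotic kinesins that were tested were all called lower. Of the 15 transport kinesins, 0 were called in either direction, although 3 rose and 7 fell at an adjusted p under 0.05, and their median log2 change was −0.20. The 7 mitotic calls held under every alternative tried, while 0 called transport kinesins did not: KIFC3 was called lower without untreated replicate 1 (−1.01) and without AX-0085 replicate 1 (−1.02), and so was KIF5C without AX-0085 replicate 1 (−1.07).

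KIFC1, a minus-end motor that bundles spindle microtubules and clusters extra centrosomes, lies at chr6:33391823-33409896 (GENCODE 44, GRCh38). It stood at 85.7 and 90.9 CPM in untreated cells and at 28.8 and 27.5 CPM with AX-0085, a 3.13-fold lower level (log2 change −1.65 ± 0.08 SE, adjusted p = 4.54e-09, edgeR's quasi-likelihood test with Benjamini-Hochberg adjustment). KIF14, a motor of the midbody, was at 88.3 and 80.0 CPM against 26.8 and 29.1 CPM (log2 change −1.59 ± 0.10). In both genes the groups did not overlap. With 2 libraries a group this also held for small changes, such as that of KIF3B (log2 change 0.15 ± 0.06). How often it held over all genes tested was not counted.

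KIF20A (chr5:138178719-138187723), which brings the chromosomal passenger complex to the central spindle, fell from 139.6 and 146.6 CPM to 49.5 and 49.4 CPM, a log2 change of −1.53 ± 0.06. KIF23 (chr15:69414246-69448427), the motor of the centralspindlin complex that marks the plane of division, fell from 192.7 and 187.2 CPM to 64.5 and 68.5 CPM, a log2 change of −1.51 ± 0.06. KIF18A (chr11:28020619-28108156), which dampens chromosome movement at the metaphase plate, fell from 70.7 and 63.3 CPM to 24.2 and 26.6 CPM, a log2 change of −1.40 ± 0.08. The adjusted p of these 3 genes in edgeR's quasi-likelihood test lay between 1.06e-09 and 2.50e-08 after Benjamini-Hochberg adjustment, and no AX-0085 library reached an untreated one.

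KIF2C, which depolymerises microtubules at centromeres, had a log2 change of −1.31 ± 0.08. Of its exon bases, 47.9% lie inside another gene, so that part of its reads may have been counted elsewhere. KIF11 (chr10:92574105-92655395) was at 209.3 and 198.2 CPM in untreated cells and at 85.2 and 93.1 CPM with AX-0085, a log2 change of −1.19 ± 0.07. The chromokinesin KIF4A (−0.97 ± 0.06) and KIF15 (−0.92 ± 0.08), which backs up KIF11 on the spindle, fell by just under 2-fold and were the uncalled pair of the 9. KIF4A shares 4345 aligned bases at 95.3% identity with KIF4B, an intronless copy that had at most 5 counts in a library and was not tested.

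Among the other mitotic kinesins, KIF18B, a partner of KIF2C at microtubule ends, had the largest fall of any kinesin with AX-0085, from 97.1 and 102.0 CPM to 30.4 and 32.4 CPM (log2 change −1.66 ± 0.08). The chromosome arm motor KIF22 had a log2 change of −1.35 ± 0.07 and KIF20B, a cytokinesis motor, one of −1.13 ± 0.10. CENPE, a kinetochore kinesin with another kind of symbol and so no member, was also called lower, at −1.48 ± 0.12.

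**Figure D2:**
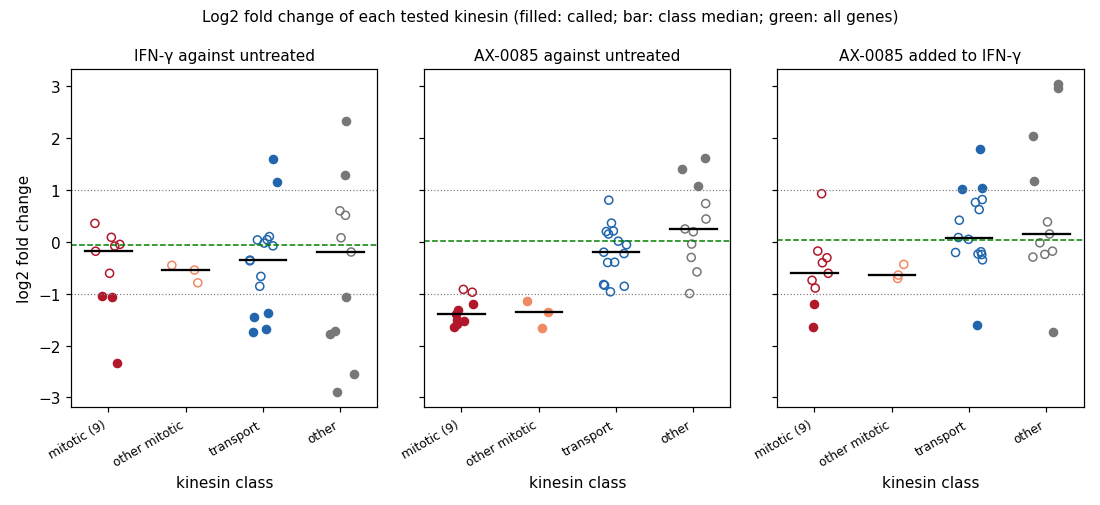
Each circle is a tested kinesin, with the log2 fold change on the y axis and the class on the x axis, in 3 comparisons; filled circles were called, bars are class medians and the green dashed line is the median of all genes tested. With AX-0085 alone all 9 mitotic kinesins lie between −1.65 and −0.92, while the 15 transport kinesins lie between −0.96 and 0.81.

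None of the 6 widely used transport motors was called with AX-0085, and KIF3A (−0.86 ± 0.19) had the largest change of them. KIF5B was at 348 and 321 CPM in untreated cells and at 241 and 267 CPM with AX-0085, a log2 change of −0.40 ± 0.08, and KIF1C had the like change of −0.39 ± 0.05. KIF3B, a heavy chain of the kinesin-2 that also builds cilia, was at 113.7 and 108.2 CPM against 127.5 and 119.2 CPM, a log2 change of 0.15 ± 0.06. The groups did not overlap in these genes, but no change reached 2-fold.

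KIF1B, a carrier of mitochondria and synaptic vesicle precursors, had a log2 change of 0.20 ± 0.07 with AX-0085, and KIF13A, an endosome motor, one of −0.22 ± 0.06. The largest rise in the class was that of KIF13B, another member of the kinesin-3 family, at 0.81 ± 0.08, and the largest fall that of KIFC3 at −0.96 ± 0.06, from 252 and 276 CPM to 141 and 130 CPM. KIF3C, a kinesin-2 chain, had a log2 change of −0.82 ± 0.06. KIF3A, another kinesin-2 chain, was below 6 CPM in every library, and another gene spans 87.1% of its exon bases. KIF21B, KIF24 and KIF26A, kinesins of neither class, had log2 changes of 0.74 ± 0.09, −0.99 ± 0.10 and −0.58 ± 0.14, of which KIF24 was called without untreated replicate 2 (−1.0025) or AX-0085 replicate 1 (−1.04), with no filter beyond 1 count (−1.008) and in the fit of only the groups compared (−1.0038).

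Over all 38 kinesins tested AX-0085 gave 3 higher and 10 lower calls (6.41% and 5.62% of all genes tested). The 3 higher were KIF12, a kinesin of epithelia, and the sparsely counted KIF25 and KIF26B. KIF12 was at 4.83 and 5.99 CPM in untreated cells and at 11.6 and 11.1 CPM with AX-0085 (log2 change 1.07 ± 0.13), and without untreated replicate 1 this was 0.93 and not called. KIF25 had 5 and 6 counts in untreated libraries and 16 and 12 with AX-0085, and KIF26B 3 and 3 against 11 and 7. Neither call held with DESeq2's test, and both were lost without either untreated library or without AX-0085 replicate 1. Without untreated replicate 1 no kinesin was called higher, and without untreated replicate 2 or AX-0085 replicate 1 the number was 1 (KIF12).

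**Figure D3:**
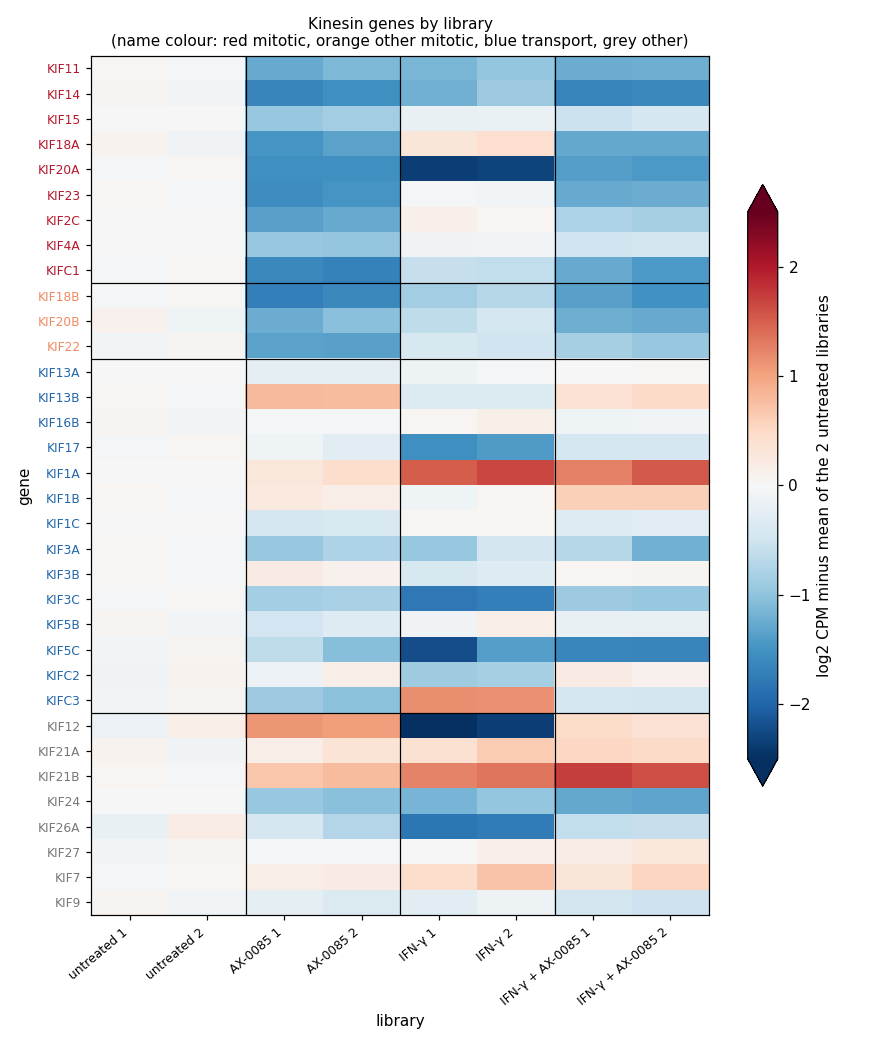
Colour gives the log2 CPM of each library (columns) minus the mean of the 2 untreated libraries, for the 34 tested kinesins with at least 50 counts in a library (rows, names coloured by class). Blue fills the mitotic rows in both AX-0085 libraries and in both doubly treated libraries, whereas IFN-γ alone lowers a few mitotic rows, KIF20A the most.

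With IFN-γ alone, 3 of the 9 mitotic kinesins were called lower and 0 higher, with a median log2 change of −0.18 against −0.06 over all genes tested. In all genes tested, 17.2% were called lower and 10.3% higher, and the whole family gave 12 lower and 4 higher calls of 38, fewer (7 lower) without IFN-γ replicate 1. Of the 15 transport kinesins, 4 were called lower and 2 higher, with a median log2 change of −0.35. With the library size alone in place of TMM scaling the median of all genes moved to −0.18, and the class medians moved with it. Mitochondrial genes took 1.71% and 1.82% of the counts in the IFN-γ libraries, below every other library, and the part of this share was not tested.

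KIF20A had the largest fall of the mitotic kinesins with IFN-γ. Its level was 27.9 and 28.7 CPM, against 139.6 and 146.6 CPM in untreated cells, 5.05-fold lower (log2 change −2.33 ± 0.07, adjusted p = 8.84e-12, edgeR's quasi-likelihood test with Benjamini-Hochberg adjustment). Both IFN-γ libraries lay below every other library of the series for this gene, those with AX-0085 included.

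KIF11 and KIF14 were the other called mitotic kinesins, at 91.8 and 103.6 CPM (log2 change −1.06 ± 0.07) and at 36.5 and 45.0 CPM (−1.04 ± 0.10). Both lie near the 2-fold limit. Without untreated replicate 1 or without IFN-γ replicate 1 neither was called, at −0.97 and −0.96 for KIF11 and −0.92 and −0.89 for KIF14. The call of KIF14 was also lost without doubly treated replicate 1, at a log2 change of −0.999, and with DESeq2's size factors in edgeR, at −0.997.

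The remaining 6 mitotic kinesins were not called with IFN-γ. KIF18A rose to 82.9 and 88.9 CPM, a log2 change of 0.36 ± 0.08 (adjusted p = 0.0012, edgeR's quasi-likelihood test with Benjamini-Hochberg adjustment). KIFC1 fell by 0.61 ± 0.08 on the log2 scale. KIF23 (−0.05 ± 0.05), KIF4A (−0.08 ± 0.06), KIF2C (0.09 ± 0.07) and KIF15 (−0.18 ± 0.08) had adjusted p-values between 0.0518 and 0.459 in the same test, and under library size scaling KIF2C was at −0.03.

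**Figure D4:**
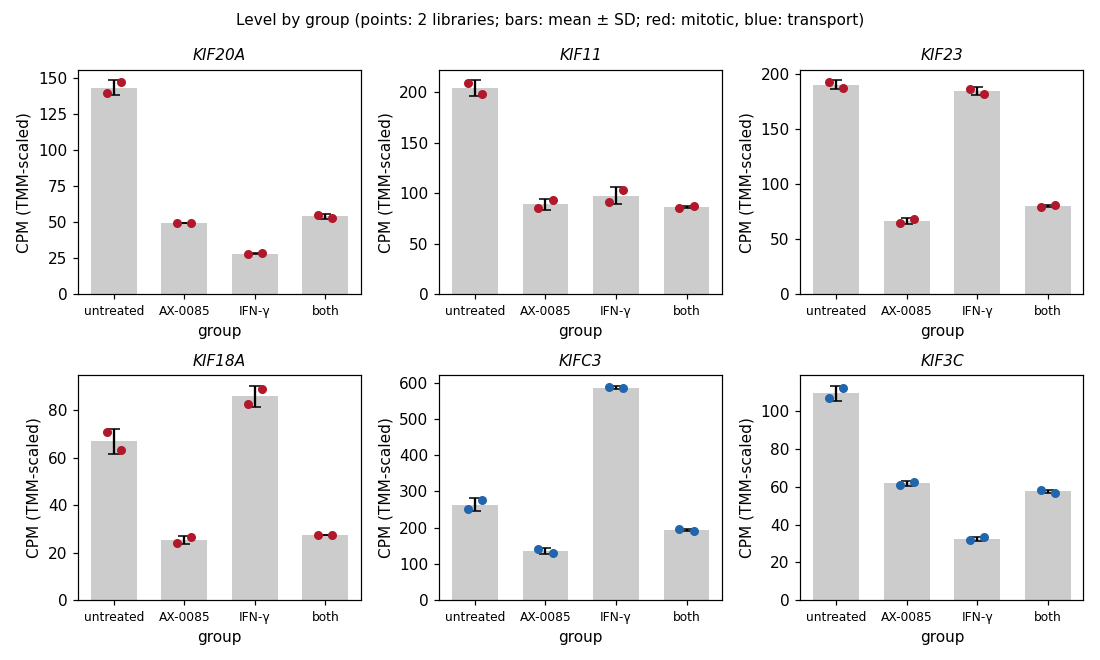
Level in CPM (y axis, from 0) of 4 mitotic kinesins (red points) and 2 transport kinesins (blue points) in the 4 groups (x axis); points are the 2 libraries and bars the mean with the SD. KIF20A and KIF3C are lowest with IFN-γ alone, KIF23 and KIF18A are low in the 2 groups with AX-0085 but not with IFN-γ alone, and KIFC3 is highest with IFN-γ alone.

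Among the transport kinesins, KIFC3 (chr16:57758217-57863053) rose with IFN-γ to 589 and 584 CPM from 252 and 276 CPM, 2.22-fold (log2 change 1.15 ± 0.06). KIF1A, a motor of synaptic vesicle precursors that is low in these cells, was at 9.03 and 10.0 CPM against 3.18 and 3.14 CPM (1.60 ± 0.14). KIF3C (chr2:25926598-25982749) fell 3.35-fold, to 31.9 and 33.4 CPM from 106.6 and 112.0 CPM (−1.74 ± 0.07). The adjusted p-values of these 3 genes were between 1.11e-10 and 3.81e-07 in edgeR's quasi-likelihood test with Benjamini-Hochberg adjustment.

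The other transport kinesins called lower were sparse. KIF17 (−1.46 ± 0.21), a motor of dendrites and cilia, had 84 and 74 counts in untreated libraries and 19 and 27 with IFN-γ. KIF5C, a neuronal heavy chain, had 57 and 51 counts against 8 and 19 (−1.68 ± 0.30), and its relative KIF5A had 21 and 12 against 4 and 6. The call of KIF5A was lost with DESeq2's test and without untreated replicate 1 or either IFN-γ library.

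Of the 6 widely used transport motors, KIF3A and KIF3B fell with IFN-γ by less than 2-fold and the other 4 did not pass the test. KIF5B was at 316 and 374 CPM, with a log2 change of 0.04 ± 0.08, and the groups overlapped. KIF1B (−0.02 ± 0.07), KIF1C (0.04 ± 0.05) and KIF13A (−0.08 ± 0.06) had adjusted p-values of 0.298 or more, and the values of KIF1B, KIF1C and KIF5B took the other sign under another scaling. KIF3B fell by 0.36 ± 0.06, KIF3A by 0.67 ± 0.19 and KIFC2 by 0.86 ± 0.13 on the log2 scale.

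In the remaining kinesins KIF21B, a motor that also restrains microtubule growth, rose with IFN-γ from 10.2 and 9.37 CPM to 23.1 and 24.6 CPM (log2 change 1.29 ± 0.09). KIF12 fell to 0.739 and 1.05 CPM, 5.87-fold lower (−2.55 ± 0.21), and KIF26A, a kinesin known from cell signalling rather than transport, fell to 3.64 and 3.78 CPM from 11.2 and 14.5 CPM (−1.78 ± 0.16). KIF24, a kinesin of centrioles that restrains cilia, had a log2 change of −1.06 ± 0.10, which was −0.96 without IFN-γ replicate 1 and then not called. KIF25 (1 and 0 counts with IFN-γ) and KIF6 (1 and 4 counts against 11 and 10) were called lower, and KIF26B (14 and 11 counts against 3 and 3) higher. The calls of KIF25 and KIF6 were lost with DESeq2's test, that of KIF25 also without untreated replicate 2 or IFN-γ replicate 2, and that of KIF6 without either untreated library or IFN-γ replicate 1.

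Adding AX-0085 to IFN-γ, compared with IFN-γ alone, called 2 of the 9 mitotic kinesins lower and 0 higher, with 8.28% of all genes tested lower and 16.5% higher. All 9 passed an adjusted p of 0.05, 8 lower and 1 (KIF20A) higher, and their median log2 change was −0.60 against 0.03 over all genes tested. Of those 15066 genes, 4940 passed it lower and 5079 higher. The called pair was KIF18A, from 82.9 and 88.9 CPM to 27.4 and 27.5 CPM (log2 change −1.65 ± 0.08), and KIF23, from 186.4 and 181.2 CPM to 79.3 and 80.8 CPM (−1.20 ± 0.06). With IFN-γ alone KIF18A had risen and KIF23 had not passed the test.

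KIF20A went the other way. It rose from 27.9 and 28.7 CPM with IFN-γ to 55.3 and 52.7 CPM with both, 1.91-fold (log2 change 0.93 ± 0.07, adjusted p = 6.41e-08, edgeR's quasi-likelihood test with Benjamini-Hochberg adjustment), which still was below the untreated libraries. With library size scaling this was 1.05 and called. KIF11, at 85.8 and 87.5 CPM, differed from IFN-γ alone by −0.18 ± 0.07. KIF2C (−0.89 ± 0.08), KIFC1 (−0.74 ± 0.08), KIF14 (−0.60 ± 0.10), KIF4A (−0.40 ± 0.06) and KIF15 (−0.31 ± 0.08) fell by less than 2-fold.

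Among the 15 transport kinesins, addition of AX-0085 to IFN-γ gave 3 higher calls and 1 lower (16.5% and 8.28% of all genes tested), with a median log2 change of 0.09, which was 0.46 without IFN-γ replicate 2. The lower one was KIFC3, from 589 and 584 CPM to 196 and 191 CPM, 3.02-fold (−1.60 ± 0.06). KIF3C rose from 31.9 and 33.4 CPM to 58.1 and 56.9 CPM, a log2 change of 0.82 ± 0.07 that stayed under 2-fold. The higher calls were KIFC2, KIF17 and KIF5A, at log2 changes of 1.02 ± 0.13, 1.03 ± 0.22 and 1.80 ± 0.44. KIFC2 and KIF17 were not called without IFN-γ replicate 1, at 0.99 and 0.97, and KIFC2 also not without doubly treated replicate 1, at 0.96. With DESeq2's test KIFC2 was at 0.98 and KIF17 at 0.999, and neither was called.

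KIF12 rose on addition of AX-0085 to IFN-γ to 7.39 and 6.88 CPM, 7.81-fold above IFN-γ alone (2.97 ± 0.20), and KIF26A to 8.35 and 8.54 CPM (1.18 ± 0.17). The sparse KIF25 and KIF6 were called higher and KIF26B lower, and none of these 3 was called in DESeq2's test. The call of KIF25 was also lost without IFN-γ replicate 2, those of KIF6 and KIF26B without IFN-γ replicate 1, those of KIF25 and KIF6 without doubly treated replicate 1, and that of KIF26B without doubly treated replicate 2. In the whole family 7 of 38 tested were called higher and 4 lower, with 16.5% and 8.28% of all genes tested. Without IFN-γ replicate 1, and without doubly treated replicate 1, 4 were called higher. The widely used motors KIF1B (0.62 ± 0.07) and KIF3B (0.42 ± 0.06) rose by less than 2-fold, KIF1C (−0.35 ± 0.05) and KIF5B (−0.23 ± 0.08) fell by less than 2-fold, and KIF13A had a log2 change of 0.09 ± 0.06.

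Doubly treated cells, compared with untreated cells, had 6 of the 9 mitotic kinesins called lower and 0 higher (7.23% and 7.51% of all genes tested). All 9 fell at an adjusted p under 0.05, with a median log2 change of −1.25. Of all 15066 genes tested, 4339 fell and 4234 rose at that limit. The largest falls were those of KIF14 (−1.65 ± 0.10), KIF20A (−1.41 ± 0.06) and KIFC1 (−1.35 ± 0.08), and the smallest those of KIF4A (−0.48 ± 0.06) and KIF15 (−0.48 ± 0.08). Of the 15 transport kinesins, KIF1A was called higher (1.39 ± 0.14) and KIF5C lower (−1.63 ± 0.29), with a class median of −0.09. KIFC3, which IFN-γ alone had raised, was at −0.44 ± 0.06. KIF21B, at 32.4 and 29.9 CPM, was 3.19-fold above untreated cells, and KIF24 fell by 1.30 ± 0.10 on the log2 scale. Over all kinesins 2 were called higher and 10 lower. This comparison shares its untreated libraries with both single treatments.

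The interaction term asks whether the effect of AX-0085 differed with and without IFN-γ, and a positive value means a less negative or more positive effect in IFN-γ cells. Of the 9 mitotic kinesins, 2 were called higher and 0 lower, with 12.1% of all genes tested called higher and 6.46% lower. KIF14, at 0.99 ± 0.14, lay just under the limit and was called without untreated replicate 2 (1.05), AX-0085 replicate 2 (1.04) or IFN-γ replicate 2 (1.13). At an adjusted p under 0.05, 4025 of all 15066 genes tested had a positive and 3552 a negative interaction. Of the 9 mitotic kinesins 8 had a positive one, and the median of the 9 was 0.61 against 0.05 over all genes tested. The exception, KIF18A, was at −0.25 ± 0.12 (adjusted p = 0.0945, edgeR's quasi-likelihood test with Benjamini-Hochberg adjustment).

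The interaction was largest for KIF20A at 2.46 ± 0.09 (adjusted p = 1.09e-09, edgeR's quasi-likelihood test with Benjamini-Hochberg adjustment), which fell with AX-0085 in cells without IFN-γ and rose with it in IFN-γ cells. KIF11 was at 1.02 ± 0.10, and its libraries with IFN-γ alone and with AX-0085 alone overlapped. That call was lost without untreated replicate 1 (0.96), AX-0085 replicate 1 (0.95) or IFN-γ replicate 1 (0.93), all of which left a positive value. KIF18B, at 1.02 ± 0.12, was called as well, and the calls of KIF18B and KIF11 were both lost with DESeq2's size factors, at 0.99 and 0.98. KIF18B was also not called without untreated replicate 2 (0.99), AX-0085 replicate 1 (0.98), IFN-γ replicate 1 (0.94) or doubly treated replicate 1 (0.91).

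Among the transport kinesins 4 were called higher on the interaction and 0 lower (12.1% and 6.46% of all genes tested), with a median of 0.31. KIF3C, at 1.64 ± 0.09, fell with AX-0085 in the absence of IFN-γ and rose with it in its presence. KIFC2 (1.01 ± 0.18), KIF17 (1.23 ± 0.28) and KIF5A (1.59 ± 0.58) were the others. KIFC2 was not called without untreated replicate 2 (0.91), AX-0085 replicate 1 (0.87), IFN-γ replicate 1 (0.98) or doubly treated replicate 1 (0.94), and KIF5A lost its call with DESeq2's test and without any one library except untreated replicate 2 and AX-0085 replicate 2. KIFC3 had a negative interaction of −0.63 ± 0.09. KIF5B (0.16 ± 0.11) and KIF1C (0.05 ± 0.07) had adjusted p-values of 0.248 and 0.635. The family as a whole had 9 higher calls and 1 lower, with 5 higher without AX-0085 replicate 1 and 5 without IFN-γ replicate 1.

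**Figure D5:**
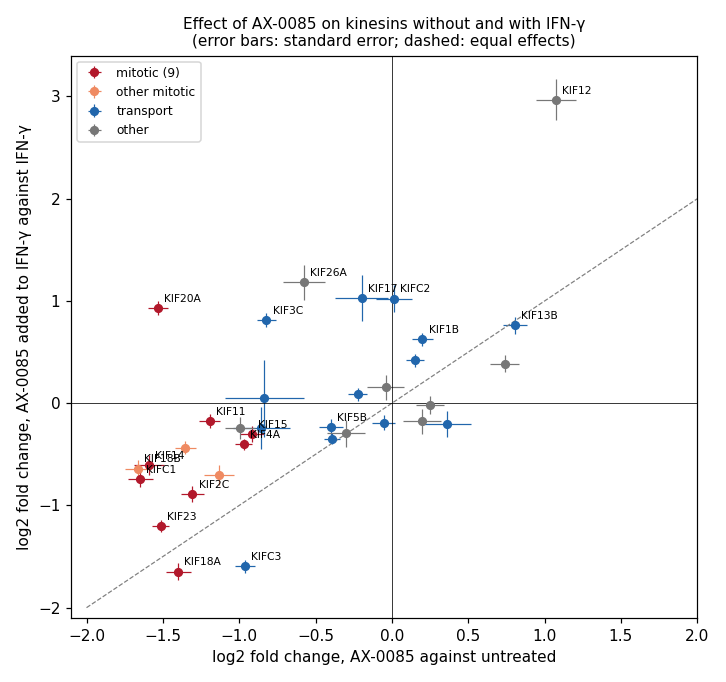
Log2 fold change with AX-0085 against untreated cells (x axis) and with both agents against IFN-γ alone (y axis) for the 34 tested kinesins with at least 50 counts in a library; error bars are standard errors and the dashed line marks equal effects. The 2 axes share no library. Most mitotic kinesins lie above the line, KIF20A the farthest of them, while KIF18A lies just below it.

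The partners of the kinesins were taken as fixed lists. That of spindle partners includes CENPE, the kinetochore kinesin given above, which is among those called lower with AX-0085. Of 24 tested spindle partners of the mitotic motors, 21 were called lower with AX-0085 and 0 higher, with a median log2 change of −1.54, where 5.62% of all genes tested were called lower. ANLN, the scaffold anillin of the cleavage furrow, had the largest fall, from 303 and 302 CPM to 85.0 and 89.0 CPM (−1.80 ± 0.05), and CKAP5, a microtubule polymerase, the smallest, −0.60 ± 0.05. With IFN-γ alone 3 of the 24 were called lower (median −0.35), against 17.2% of all genes tested, and INCENP, a subunit of the chromosomal passenger complex, fell most, at −1.35 ± 0.08, while CKAP5 rose by 0.59 ± 0.05. On addition of AX-0085 to IFN-γ 5 were called lower, against 8.28% of all genes tested, and all 24 were negative (median −0.68), with ECT2, the activator of RhoA in cytokinesis, the lowest at −1.56 ± 0.08 and GTSE1, a microtubule-binding protein of G2, the highest at −0.16 ± 0.08. On the interaction 6 were called higher, against 12.1% of all genes tested, and all 24 were positive, with a median of 0.77.

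Light chains and cargo adaptors of the transport motors had 0 of 16 tested genes called with AX-0085 or with IFN-γ, and 1 called higher on addition of AX-0085 to IFN-γ. Over all genes tested 6.41% were called higher and 5.62% lower in the AX-0085 comparison, 10.3% and 17.2% in that of IFN-γ, and 16.5% higher on the addition. The 1 called was KLC4, a light chain, at 6.34 and 5.95 CPM with IFN-γ and 16.9 and 16.2 CPM with both (1.43 ± 0.10). KLC1 and KLC2, the other light chains tested, fell with AX-0085 by 0.69 ± 0.11 and 0.71 ± 0.07 on the log2 scale, and KIFAP3, the kinesin-2 accessory subunit, rose by 0.26 ± 0.08. Of the exon bases of KLC1, 90.4% lie inside another gene, so that part of its reads may have been counted elsewhere. TRAK1, a mitochondrial adaptor, had the largest rise of the list with AX-0085, 0.88 ± 0.07.

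Of 19 tested genes of dynein and its cofactors, the motors that run the opposite way, 0 were called with AX-0085 and 3 were called higher with IFN-γ (10.3% of all genes tested), led by the heavy chain DYNC1H1 at 1.70 ± 0.10. DYNLT1, a light chain, had the largest fall of the list with IFN-γ, −0.72 ± 0.09, and with AX-0085 the extremes were DCTN4 (0.56 ± 0.06) and NDE1 (−0.87 ± 0.08). Of 9 tested tubulin genes, which encode the track itself, 6 were called lower with AX-0085 (median −1.05, with 5.62% of all genes tested called lower) and 4 with IFN-γ (median −0.92, with 17.2%), and all 9 were negative in both. TUBB4B fell most with AX-0085 (−1.81 ± 0.07) and TUBB4A most with IFN-γ, from 13.04 and 14.01 CPM to 0.739 and 0.442 CPM (−4.55 ± 0.24). STARD9, a centriole kinesin with another kind of symbol, had log2 changes of −0.29 ± 0.16 with AX-0085 and −0.46 ± 0.16 with IFN-γ.

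The protein-coding kinesins KIF2A, KIF2B and KIF19 were at 0 in all 8 libraries and so were no members. Of the exon bases of KIF2A, 99.7% lie inside another gene of GENCODE 44, and of those of KIF2B 100%. Of 1530 protein-coding genes of which at least 99% of the exon bases, but under 25% inside exons, lie within another gene, 92.2% were at 0 in all libraries, against 14.9% of 8779 genes without such overlap. A 0 for KIF2A or KIF2B in this table can therefore not be read as absence of the transcript. None of the exon bases of KIF19 lie inside another gene. Of the members, KIF3A (87.1%), KIF27 (56.2%), KIF2C (47.9%), KIF9 (40.8%) and KIF7 (31.4%) had the largest shares inside another gene, and KIF27 also matches 3 genes annotated as pseudogenes or lncRNA on chromosome 9 at 96.7% to 97.6% identity.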

How the data were processed

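The 8 RNA libraries of A549 cells fell into 4 groups of 2, taken from the sample titles. The authors prepared stranded mRNA libraries, trimmed the reads with Trim Galore 0.6.7, mapped them to GRCh38 with STAR 2.7.9a and deposited raw counts per gene from featureCounts, without normalization. The annotation release and the strand setting of the counting are not given in the sources used here. Gene positions, lengths and overlaps come from GENCODE 44, which holds 60463 of the 60664 identifiers.

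From the deposited counts, 15066 genes passed edgeR's filterByExpr. They were scaled with TMM factors and tested in edgeR 4.0.16 (R 4.3.3) with the quasi-likelihood test, all 8 libraries in 1 model of the 4 groups. Adjusted p-values are Benjamini-Hochberg values over all genes tested, calls needed an adjusted p under 0.05 and a fold change over 2, and standard errors (SE) were derived from the F statistic. CPM per kb divides by the union of exons. Near-identical transcripts were sought with blastn 2.17.0 (90% identity over at least 500 bases). The calling of genes was tested on simulated data, with planted changes above 2-fold in well-counted genes of the IFN-γ group. That simulation did not cover the interaction, changes in sparse genes or changes near the 2-fold limit.

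The kinesins and gene lists were chosen with earlier results of these data known, so that no p-value was computed over a list. Named were the 9 mitotic kinesins, every other kinesin called in any of the 5 comparisons, 6 widely used transport motors (KIF5B, KIF3A, KIF3B, KIF1B, KIF1C and KIF13A), KLC1, KLC2, KLC4 and KIFAP3, and of each other list the extremes of a comparison. KIF13B, KIF22, KIF20B, KIF27, KIF9 and KIF7 were named outside that rule where a range, a class or an overlap needed it, after their values were seen. Alternatives were DESeq2 1.42.0, its size factors, library size scaling, other filters, a fit of 2 groups at a time, the adjusted p without a fold limit, a replicate block, and leaving out each library. Protein sequences were not used here, and 1 promoter motif is not reported here.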

Additional observations from a re-analysis of the deposited data

Results flagged for a closer look

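For 10 kinesins the effect of AX-0085 differed between cells with and without IFN-γ by the interaction term of edgeR's quasi-likelihood test (Benjamini-Hochberg adjusted p under 0.05 and over 2-fold). Of 38 kinesins tested, 9 were called higher and 1 lower, with 12.1% and 6.46% of all genes tested. The interaction was positive for KIF20A (2.46), KIF12 (1.89), KIF26A (1.76), KIF3C (1.64), KIF5A (1.59), KIF17 (1.23), KIF18B (1.02), KIF11 (1.02) and KIFC2 (1.01), as log2 differences of the 2 effects. The calls of KIF5A, KIF18B, KIF11 and KIFC2 were lost with DESeq2's test. A negative interaction was called for KIF26B (−3.37), which had at most 14 counts in a library and 3 in each untreated one. KIF20A, KIF3C and KIF26A had opposite signs of the AX-0085 effect without and with IFN-γ, at −1.53 and 0.93, −0.82 and 0.82, and −0.58 and 1.18. The signs also differed for KIF17 (−0.20 and 1.03), but its effect without IFN-γ did not pass an adjusted p of 0.05. Its call with IFN-γ was lost with DESeq2's test. KIF26B (1.63 and −1.75) lost both calls with DESeq2's test. KIF12 rose in both, by 1.07 and 2.97. Groups of 2 libraries are too small to mark a single library as an outlier.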

How the results depend on the processing

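Each group had 2 libraries, and what moved included genes near the 2-fold limit, genes with few counts and class medians. Values run in the order IFN-γ, AX-0085 (each against untreated), AX-0085 on top of IFN-γ, both agents, and the interaction, unless said otherwise, and the cause of a shift was not tested. With the adjusted p alone, kinesins counted higher and lower were 7 and 20, 8 and 21, 13 and 16, 7 and 20, and 21 and 4. Over all 15066 genes tested the same counts were 4838 and 5421, 4018 and 4010, 5079 and 4940, 4234 and 4339, and 4025 and 3552. DESeq2's test gave 1 kinesin higher with AX-0085, 3 on addition to IFN-γ and 5 on the interaction. Testing all genes with a count gave 1 higher with AX-0085, and at least 10 counts in every library gave 1 higher with AX-0085, 4 on addition to IFN-γ and 0 lower on the interaction, since sparse genes leave the test.

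Library size scaling moved the mitotic medians to −0.30 with IFN-γ, −0.49 on addition of AX-0085 and 0.73 on the interaction, and the transport medians to −0.47, 0.21 and 0.43. The transport medians were −0.30, 0.0471 and 0.28 with DESeq2's test and −0.30, 0.0473 and 0.28 with its size factors in these comparisons, −0.31 with IFN-γ in the fit of only the groups compared, and −0.12 and 0.14 with at least 10 counts, where the mitotic median on addition was −0.55.

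Leaving out 1 library at a time, the mitotic medians ranged from −0.19 to −0.12, −1.48 to −1.30, −0.73 to −0.45, −1.27 to −1.16 and 0.55 to 0.66, and the transport medians from −0.38 to −0.27, −0.22 to −0.14, 0.027 to 0.46, −0.14 to 0.016 and 0.25 to 0.34. Kinesins called lower with IFN-γ ranged from 7 to 12, kinesins called higher with AX-0085 from 0 to 3, on addition to IFN-γ from 4 to 7, and on the interaction from 5 to 10.

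The sign turned only in uncalled values, the farthest from 0 being that of KIF3A on addition of AX-0085 to IFN-γ (−0.24 ± 0.21). With IFN-γ, KIF1B was at 0.023 with DESeq2's test and its size factors and at 0.015 in the fit of only the groups compared, KIF2C, KIF1C and KIF5B were at −0.028, −0.078 and −0.071 with library size scaling, and KIF1C and KIF5B at −0.0091 and −0.0036 with at least 10 counts. Without 1 library, KIF1B ranged from −0.073 to 0.081, KIF23 from −0.064 to 0.019 and KIF5B from −0.036 to 0.17 with IFN-γ, KIF5A from −0.10 to 0.52 and KIFC2 from −0.14 to 0.15 with AX-0085, KIF3A from −0.54 to 0.030 and KIF5C from −0.27 to 0.58 on addition to IFN-γ, and KIF25 from −0.081 to 0.43 with both.

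The replicate number as a block gave 3 kinesins called higher and 10 lower with AX-0085 and changed no call, and the correlation of same-numbered libraries' deviations was −0.0738 to 0.0444 over 6 pairs of groups, so the numbers were not taken to pair the libraries.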
